A study of Mus musculus with 12 samples.

Results

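The genes described here encode the translation initiation and elongation factors of the mouse, together with the kinases and binding proteins that control them. They were taken as every protein-coding symbol that begins with Eif or Eef followed by a digit and that occurs in both tables of the study, without the sex-linked pair Eif2s3x and Eif2s3y. The rule found 59 genes, of 12522 protein-coding symbols shared by the tables, and 45 of the 59 are counted here as core factors. These are the subunits and paralogues of the initiation and elongation factors and of their exchange factors eIF2B and eEF1B. The other 14 are kinases, eIF4E-binding proteins and genes that carry such a name beside the main cycle, such as Eif6, Eif4a3, Eif1ad and Eef1e1. Each table held 64 protein-coding symbols of this form. Outside the rule stood Eef1a2, Eif4e1b and Eif4e3, which occur only in the blastocyst table, and Eef1akmt1, Eef1akmt2 and Eef1akmt4, which occur only in the table of embryonic stem (ES) cells.

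The study compared Dis3L KO with Dis3L WT mice, that is, embryos and cells without and with Dis3l, whose product is a ribonuclease of the exosome in the cytoplasm, where that complex shortens mRNA from the 3′ end. There are 12 labelled samples: 3 knockout and 3 wild-type blastocysts, and 3 knockout and 3 wild-type ES cell samples. Females were superovulated and blastocysts, embryos just before implantation, were collected 96 h after the hCG injection, and each blastocyst library came from 1 embryo. ES cells, the pluripotent lines grown from such embryos, were derived and kept with LIF on feeder layers of inactivated mouse embryonic fibroblasts, so fibroblast RNA can be part of their libraries. The labels give neither the allele, the sex of the embryos nor whether the ES cell samples are separate lines, so the p-values measure the spread between these samples, which for the ES cells may be technical.

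Translation begins when eIF2, loaded with GTP and initiator tRNA, joins the small ribosomal subunit with eIF1, eIF1A, eIF3 and eIF5, while the eIF4 proteins bind the cap of the mRNA and unwind its leader. The exchange factor eIF2B reloads eIF2 with GTP, and the eIF2 kinases block it when amino acids are short, proteins misfold, haem is low or double-stranded RNA is present. That block lowers initiation on most mRNAs but favours a few, among them the one for the transcription factor ATF4. The elongation factor eEF1A brings aminoacyl-tRNA to the ribosome, eEF1B recharges it, and eEF2 moves the ribosome along the mRNA until its kinase switches it off. Early embryos start with maternal stores of ribosomes and factors and take over with their own transcription before the blastocyst forms.

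Promoter sequence was the one feature examined that needed no expression value. RefSeq start sites on GRCm38.p6 gave a window for 47 of the 59 genes, and the 250 bases before the start were searched. The E-box CACGTG, a palindrome that reads the same on both strands and is bound by MYC and related factors, occurred in 11 of the 47 windows (23.4%), against 9.97% of the genes tested in blastocysts and 6.86% of all genes with a window. The letters were chosen for search with earlier results of these data in view, and a match is a description of the window and no evidence of binding. The stretches around the E-box are shown for the cap-binding protein Eif4e, the scaffold Eif4g1 that joins cap to ribosome, the elongation factor Eef2, its kinase Eef2k and the eIF3 subunit Eif3k, because these span initiation, elongation and control. Each is printed 5′ to 3′ on the strand of the gene, with the E-box in capitals.
Eif4e, chr3:138527174-138527239, plus strand: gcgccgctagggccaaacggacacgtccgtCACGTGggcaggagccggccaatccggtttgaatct
Eif4g1, chr16:20672643-20672708, plus strand: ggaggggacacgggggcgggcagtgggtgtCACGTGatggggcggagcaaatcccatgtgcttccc
Eef2, chr10:81176558-81176623, plus strand: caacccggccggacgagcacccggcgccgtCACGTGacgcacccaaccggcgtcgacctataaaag
Eef2k, chr7:120842770-120842830, plus strand: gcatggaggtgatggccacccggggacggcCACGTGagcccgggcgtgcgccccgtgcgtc
Eif3k, chr7:28981897-28981962, minus strand: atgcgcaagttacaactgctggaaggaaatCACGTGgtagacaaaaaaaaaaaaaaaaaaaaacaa
The other genes with an E-box in the window were Eif1b, Eif3f, Eif4a1, Eif4h, Eif5a and Eif5a2. By contrast, the cAMP response element TGACGTCA occurred in 0 of the 47 windows against 302 of the 9742 tested in blastocysts. The element TGATGNAA, searched on both strands as the composite site that ATF4 and C/EBP proteins can bind, occurred in 1 window, that of Eef2k (2.13% against 2.34%), and the CCAAT box in 15 (31.9% against 40.5%). In the authors' deposited table for blastocysts the median log2 fold change was −0.05 both in the 11 genes with an E-box and in the 36 without one.

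Neither table holds a value per sample, and neither states which genotype was divided by which. The whole reads behind each mean were therefore recovered arithmetically, which yields count columns, called libraries here, that go with the positive or with the negative side of the comparison. No library was assigned to a genotype or to a labelled sample. Blastocysts gave 3 libraries on each side, and ES cells gave 2 on each side although the labels list 6 ES cell samples. Reads were recovered for 41 of the 59 genes in blastocysts, where the search was limited to means under 1000, and for 57 of 59 in ES cells. Over all recovered genes the libraries held 1190253 to 2793220 reads in blastocysts and 1032143 to 1696824 in ES cells. In 12616 of the 14689 recovered blastocyst genes the read number was even in all 6 libraries, against 648 of 10688 genes in all 4 ES cell libraries. Most blastocyst reads thus come in pairs, and fewer fragments than the printed reads stand behind a blastocyst value. For Dis3l itself the authors' deposited table listed a log2 fold change of 0.28 (SE 1.91, p = 0.882) in blastocysts and −0.88 (SE 0.33, p = 0.00778, adjusted p = 0.445) in ES cells. Its ES cell reads were 14 and 8 in the positive-side libraries, against 39 and 39 in the negative-side ones, while in blastocysts the sides overlapped.

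The blastocyst libraries did not all group by side. Over 6890 recovered genes with a mean of at least 50, the second negative-side library correlated with the 3 positive-side libraries at r = 0.760, 0.808 and 0.689 on the log2 scale, but with the first and the third negative-side libraries at only 0.595 and 0.578. Those correlated with each other at 0.747. The second negative-side library lay nearer to the mean of the other side than to that of its own in 4408 of these genes, and in 25 of the 36 factors among them. The first positive-side library was nearer to the other side in 3686 of these genes (53.5%) and in 17 of the 36 factors, and it correlated at 0.692 and 0.665 with the first and the third negative-side libraries but at 0.651 with the third positive-side library. The other 4 libraries were nearer to the other side in 41.5% to 43.6% of the genes. Results that rest on the second negative-side library are given with and without it. Inner cell mass and trophectoderm markers were present in all 6 libraries. The 8 recovered inner cell mass markers summed to 1950, 957 and 927 normalised reads on the positive and 2455, 1728 and 3274 on the negative side. The 4 recovered trophectoderm markers summed to 1226, 1809 and 2475 against 1138, 1774 and 1280. Both lists also held genes that differed in the authors' deposited table: of the 10 tested trophectoderm markers 2 were positive and 2 negative at an unadjusted p under 0.05, with a median log2 fold change of 0.07. Of the 10 tested inner cell mass markers, 3 were negative at that level, with a median of −0.33 in the authors' deposited table. Of 11 fibroblast markers, 7 were listed at 0 in blastocysts, Col1a1, Col1a2 and Dcn among them. The ES cell libraries held 1330 and 1086 normalised reads of the 11 fibroblast markers on the positive and 1192 and 2475 on the negative side. The part of such markers in the results on the factors was not tested, and in whole-sample RNA fewer cells of a type and less RNA per cell cannot be told apart.

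The level of the factors spanned several orders of magnitude, and the elongation factors led in both materials. Levels are means of normalised reads per kb of the gene's annotated exons, pooled over all libraries. Eef1a1, which delivers aminoacyl-tRNA, stood first with 8368 per kb for blastocysts and 4726 per kb for ES cells in the authors' deposited tables divided by exon length. Eef2, the translocase, came second with 6231 and 1202 per kb. These 2 genes made up 53.6% of the summed level per kb of the 59 genes in blastocysts and 54.3% in ES cells. By its mean in the authors' deposited tables Eef1a1 ranked 11 of all 45706 listed genes in blastocysts and 2 of 13009 in ES cells, and Eef2 ranked 12 and 9.

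**Figure D1:**
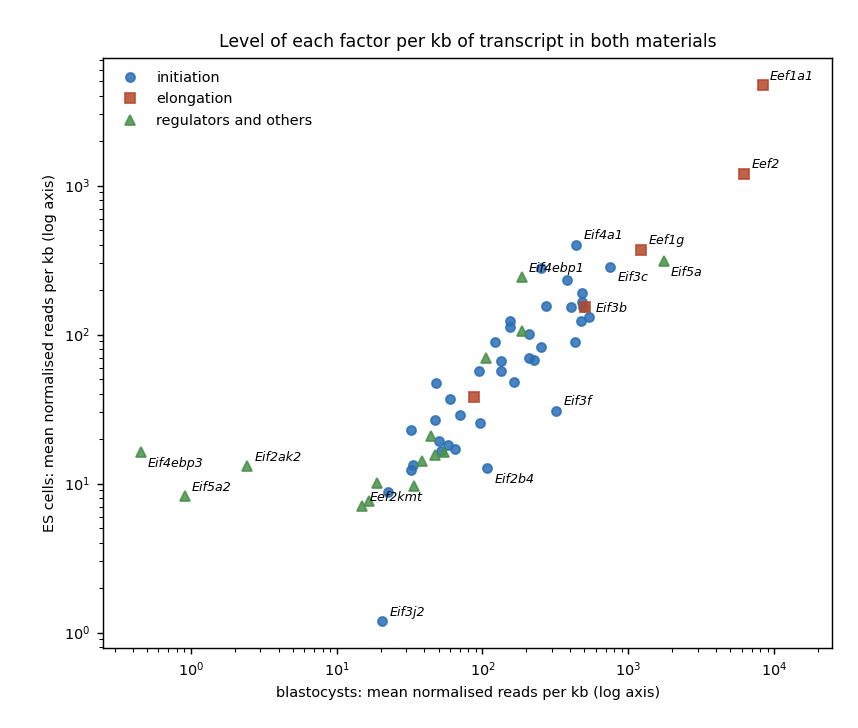
Mean normalised reads per kb of transcript of the 59 factors in blastocysts (x axis, log scale) and in ES cells (y axis, log scale), each point 1 gene, with the shape and colour showing its role. Eef1a1 and Eef2 lie at the top right, and Eif4ebp3, Eif5a2 and Eif2ak2 lie far to the left of the other genes.

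Below them in blastocysts came Eif5a (1747 per kb), which helps the ribosome through difficult peptide bonds, the eEF1B subunit Eef1g (1228 per kb) and the eIF3 subunits Eif3c (749 per kb) and Eif3b (533 per kb). In ES cells the RNA helicase Eif4a1 (402 per kb), Eef1g (370 per kb), Eif5a (311 per kb) and Eif3c (285 per kb) followed. The order of the 59 genes was much alike in both materials, with a Spearman correlation of 0.919 across genes, which share the length used in both values and are not independent replicates. At the low end, Eif4ebp3 had a mean of 0.338 normalised reads in blastocysts in the authors' deposited table and was not tested there, while its mean in ES cells was 12.1. Its recovered blastocyst reads were 0 in 5 of 6 libraries. The eIF5A paralogue Eif5a2 had 25.9 normalised reads in the third negative-side library, 1.43 in the first positive-side library and 0 in the other 4. The double-stranded RNA sensor Eif2ak2 (PKR) had 9.99, 10.1 and 0 normalised reads on the positive and 0, 0 and 54.7 on the negative side. These low genes were thus seen in 1 to 3 embryos each, whereas in ES cells all 4 libraries held reads of Eif5a2, from 27.6 to 51.4, and of Eif2ak2, from 51.3 to 85.6. Eif3j2, which is a near copy of Eif3j1 and may share reads with it, ran the other way, with a mean of 48.9 for blastocysts and 2.84 in the ES cells of the authors' deposited tables. The libraries of both materials were made by different methods, so a difference in level between them was not tested.

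None of the factors passed the adjusted threshold of 0.05 in the authors' Wald tests. In blastocysts 0 of 58 tested factors had an adjusted p under 0.05 in the authors' deposited table, against 0.0986% of all 15209 tested genes, and 5 had an unadjusted p under 0.05 (8.62% against 6.21%, or 7.1% of genes with a mean of at least 50). Of these 5, 2 were positive and 3 negative, where 2.68% and 3.53% of all tested genes were called in each direction. In ES cells 0 of 58 passed, against 0.261% of 10739 tested genes, and 1, a negative one, had an unadjusted p under 0.05 (1.72% against 5.62%, or 6.96% of genes with a mean of at least 50, split into 2.21% positive and 3.42% negative). The lowest adjusted p of a factor in the authors' deposited tables was 0.667 for blastocysts and 0.332 for ES cells. The factors' log2 fold change had a median of −0.06 for blastocysts and 0.00 for ES cells, beside −0.04 and 0.00 over all tested genes of the authors' deposited tables. In blastocysts the median standard error in the authors' deposited table was 0.37 for the factors and 0.92 for all tested genes. It was 0.52 for tested genes with a mean of at least 50. The median mean of the factors was 430, against 46.3 for all tested genes and 172 for those with a mean of at least 50. The 95% intervals lay within a 2-fold change either way for 26 of 58 factors in blastocysts (44.8%), and within 1.5-fold for 5. The 2-fold share was 9.54% over all tested genes and 19.6% over those with a mean of at least 50. Within 1.5-fold lay 66 of 15209 tested genes. With the shrinkage of the ES cell fold changes approximately undone, 44 of 55 factors lay within 2-fold (80.0%) and 8 within 1.5-fold. The 2-fold share in ES cells was 44.5% over all genes so treated and 59.8% over those with a mean of at least 50. Within 1.5-fold lay 296 of 8309 such genes. For the remaining factors the intervals were too wide to bound a 2-fold change.

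**Figure D2:**
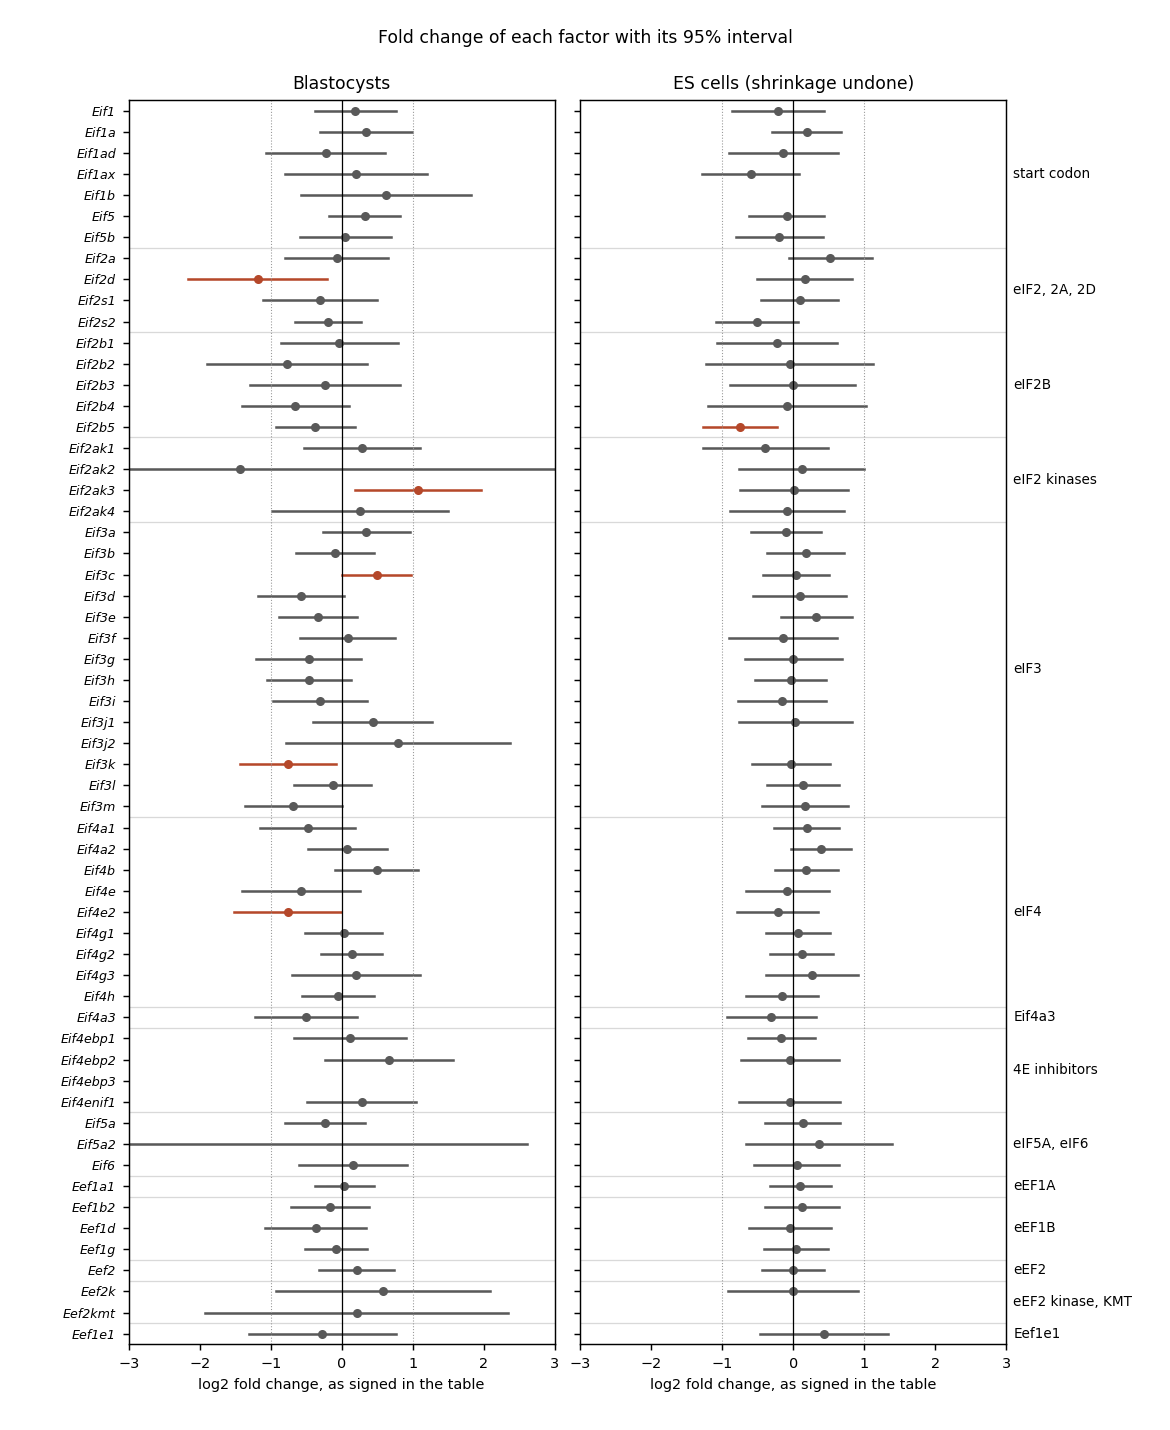
Log2 fold change (x axis, signed as in the tables) of each factor with its 95% interval in blastocysts (left) and, with shrinkage undone where the mean allows it, in ES cells (right), grouped by role. Red marks an unadjusted p under 0.05, for 5 factors on the left and 1 on the right, dotted lines mark 2-fold, and Eif2ak2 and Eif5a2 in blastocysts run off the axis.

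Among the factors that select the start codon, counted here with Eif1ad, 6 of 7 had a positive fold change in blastocysts, as 48.3% of all tested genes did, with a median of 0.20 in the authors' deposited table. The negative gene was Eif1ad (−0.23), which is not among the core factors. Eif1b, a relative of the start-codon gatekeeper eIF1, had 99.9, 77.1 and 89.1 normalised reads on the positive side, against 59.4, 55.7 and 57.5 on the negative side. Its sides did not overlap, and it was 1 of 2 recovered factors with every positive-side library higher. The authors' deposited table gave it a log2 fold change of 0.62 (SE 0.61, p = 0.304), so the difference did not pass the test. Eif1 itself had 817, 887 and 1195 normalised reads against 893, 908 and 734, and Eif5, the GTPase-activating partner of eIF2, had a log2 fold change of 0.32 (SE 0.26, p = 0.206) in the authors' deposited table. Eif1a and Eif1ax encode near-identical proteins from different chromosomes and may share reads. In blastocysts their sides overlapped.

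Every one of the 4 genes of eIF2 and the alternative initiator-tRNA carriers was negative in blastocysts, with a median of −0.25 in the authors' deposited table. So were 7862 of all 15209 tested genes, and Eif2a stood at only −0.07. Eif2d (ENSMUSG00000026427, chromosome 1 from 131153181 to 131187658, GRCm38), which can place tRNA on the ribosome without GTP and takes part in recycling, had the lowest unadjusted p of the 59 genes in blastocysts beside Eif2ak3. Its libraries held 287, 288 and 105 normalised reads on the positive side, against 657, 227 and 662 on the negative side. The first and the third negative-side libraries were more than double any positive-side library, and the second lay among the positive ones, so the sides overlapped. The log2 fold change was −1.18 (SE 0.50, p = 0.0179, adjusted p = 0.667) in the authors' deposited table. The log2 ratio of the recovered side means was −1.18 as well. With 1 library left out it ranged from −1.54, without the second negative-side library, to −0.84, without the third positive-side one. The eIF2 alpha subunit Eif2s1, whose protein the kinases phosphorylate, had 321, 311 and 624 normalised reads against 621, 326 and 598. Eif2s2, the beta subunit, was measured more tightly, at −0.19 (SE 0.24, p = 0.413) in the authors' deposited table.

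All 5 subunits of eIF2B were negative in both tables, with a median log2 fold change of −0.37 (blastocysts) and −0.05 (ES cells) in the authors' deposited tables. Of all tested genes, 7862 of 15209 and 5370 of 10739 were negative. Eif2b3 stood at only −0.004 in ES cells. The direction of neither table is stated, so the signs cannot be matched between materials. In blastocysts none of the 5 had an unadjusted p under 0.05. Eif2b4, the delta subunit, had 218, 207 and 226 normalised reads on the positive and 437, 263 and 322 on the negative side, without overlap (log2 fold change −0.65, SE 0.38, p = 0.0906 in the authors' deposited table). Eif2b2, the beta subunit, had 80.0, 69.0 and 68.6 against 174, 111 and 83.4, also without overlap, at p = 0.181 in the authors' deposited table. The alpha and gamma subunits Eif2b1 and Eif2b3 overlapped between the sides, at log2 ratios of −0.03 and −0.23. The catalytic epsilon subunit Eif2b5 had a mean too high for its reads to be recovered there, with a log2 fold change of −0.37 (SE 0.28, p = 0.193) in the authors' deposited table.

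In ES cells Eif2b5 (ENSMUSG00000003235, chromosome 16 from 20498817 to 20509955, GRCm38) was the factor with the lowest p. It had 256 and 332 normalised reads on the positive side, against 518 and 471 on the negative side, without overlap. The shrunken log2 fold change was −0.65 (SE 0.23, p = 0.00451, adjusted p = 0.332) in the authors' deposited table, which corresponds to −0.75 with the shrinkage undone and −0.75 from the recovered reads. With 1 library left out, the ratio from recovered reads ranged from −0.95, without the second positive-side library, to −0.58, without the first. The remaining 4 subunits lay near 0 in ES cells: the ratios from recovered reads were −0.23 for Eif2b1, −0.07 for Eif2b2, 0.00 for Eif2b3 and −0.10 for Eif2b4, and the sides overlapped for each. The unequal size of the change among subunits of 1 complex was not tested.

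Of the eIF2 kinases, 3 of 4 were positive in blastocysts and 2 of 4 in ES cells, where 50.0% of all tested genes were. Eif2ak3 (ENSMUSG00000031668, chromosome 6 from 70844515 to 70905245, GRCm38) encodes PERK, the kinase of the endoplasmic reticulum that responds to unfolded protein. It had 230, 227 and 482 normalised reads on the positive and 137, 165 and 144 on the negative side of the blastocyst comparison. Every positive-side library was higher than every negative-side library, the second negative-side library included, and the third positive-side library was highest. The log2 fold change was 1.07 (SE 0.45, p = 0.0179, adjusted p = 0.667) in the authors' deposited table, and the log2 ratio of the recovered side means fell from 1.07 to 0.62 without the third positive-side library. In ES cells Eif2ak3 had 89.4 and 81.6 against 74.2 and 96.6 normalised reads, with a 95% interval from −0.76 to 0.77 on the log2 scale once the shrinkage was undone. Whether the materials differ in this gene was not tested. The haem-regulated kinase Eif2ak1 had 200, 205 and 226 against 203, 152 and 161 normalised reads in blastocysts, and 46.3 and 48.7 against 62.8 and 61.8 in ES cells. Eif2ak4 (GCN2), which senses uncharged tRNA, had 226, 199 and 38.9 against 124, 111 and 152 in blastocysts, with 1 low library on the positive side.

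**Figure D3:**
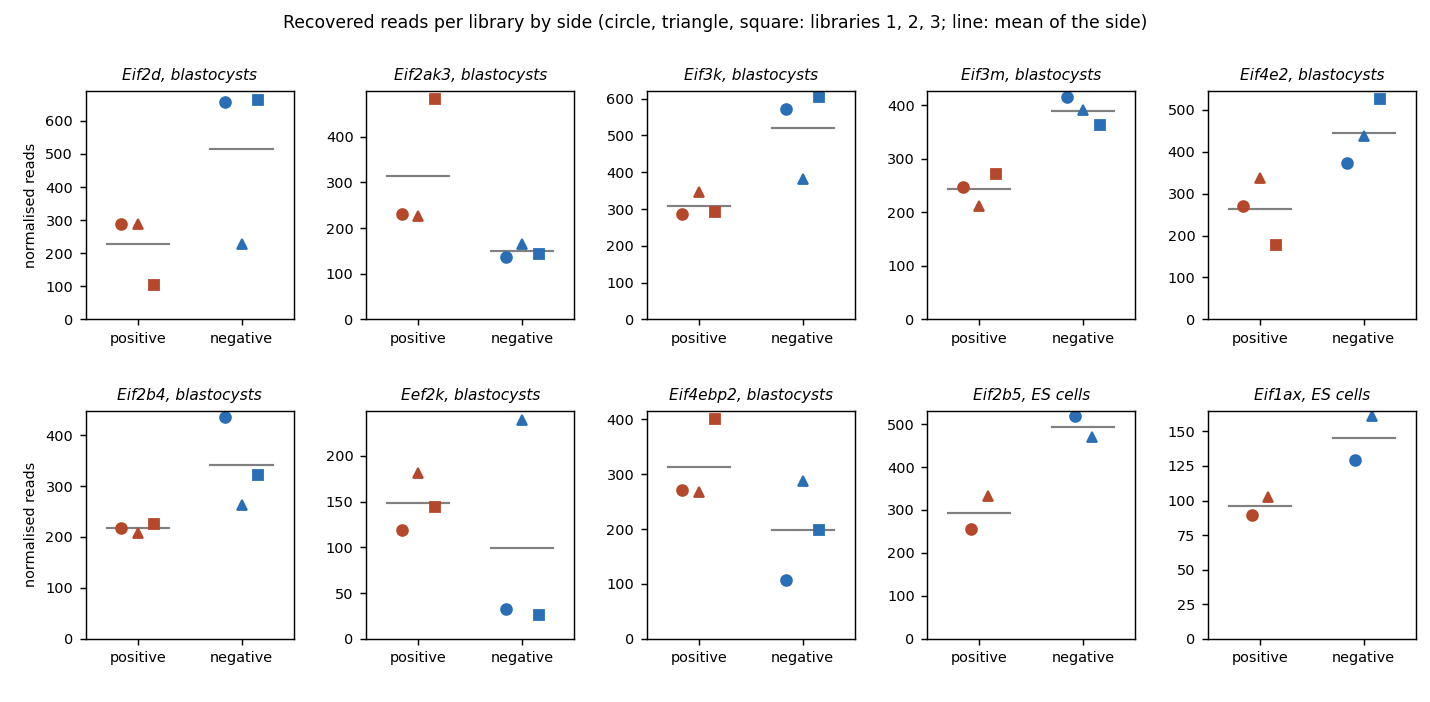
Normalised reads (y axis, from 0) of 8 factors in the blastocyst libraries and of 2 in the ES cell libraries, by side of the comparison; each symbol is 1 library and the line is the mean of the side. The second negative-side blastocyst library (blue triangle) lies among the positive-side libraries for Eif2d and Eif4ebp2. It lies above them for Eef2k, Eif2b4, Eif3k, Eif3m and Eif4e2, and below them for Eif2ak3.

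The eIF3 complex is the scaffold that holds the small subunit and the mRNA together. In blastocysts 9 of its 14 genes were negative, beside 7862 of all 15209 tested genes. The median log2 fold change of the eIF3 genes was −0.22 in the authors' deposited table. Reads were recovered for 10 of the 14. In 5 of these 10, Eif3d, Eif3e, Eif3h, Eif3k and Eif3m, every negative-side library was higher than every positive-side library, and in none was the order the opposite. Such separation in this direction was found in 5.30% of the 14684 recovered genes and, with both directions, in 9.96% of them. Among recovered genes with a mean of at least 50, it was found in this direction in 460 of 6890. Eif3k (ENSMUSG00000053565, chromosome 7 from 28971373 to 28981814, GRCm38), a small peripheral subunit whose E-box window is printed above, had 286, 345 and 293 normalised reads on the positive and 573, 381 and 604 on the negative side. Its log2 fold change was −0.76 (SE 0.35, p = 0.0296, adjusted p = 0.747) in the authors' deposited table. Eif3m had 248, 211 and 272 against 416, 391 and 363 normalised reads, the tightest negative side of the 5, at p = 0.0524 in the authors' deposited table. Eif3d, a cap-binding subunit, had 645, 520 and 437 against 863, 651 and 866, and Eif3h had 500, 491 and 555 against 599, 676 and 852.

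The subunits Eif3a, Eif3b and Eif3c went both ways. Eif3c (ENSMUSG00000030738, chromosome 7 from 126546455 to 126566411, GRCm38), a core subunit, had a log2 fold change of 0.49 (SE 0.25, p = 0.0454, adjusted p = 0.779) in the authors' deposited table, on the positive side. Eif3a, the largest subunit, stood at 0.35 (SE 0.31, p = 0.268) and Eif3b at −0.09 (SE 0.28, p = 0.742) in the authors' deposited table. Their means were above the limit of the search, so no library values are available for them here. Over all tested genes with a mean of at least 50, the Spearman correlation of fold change with transcript length was 0.22 in blastocysts and 0.02 in ES cells, and over the 58 tested factors 0.17 and 0.01. The part of transcript length in the difference between subunits was not tested. In ES cells all 13 tested eIF3 genes had a 95% interval within 2-fold either way, and their median log2 fold change was 0.02 in the authors' deposited table. Eif3e was separated in ES cells in the direction opposite to blastocysts: it had 460 and 527 normalised reads on the positive and 360 and 428 on the negative side, against 697, 777 and 921 and then 1134, 952 and 926 in blastocysts. The direction of neither table is stated, so these sides cannot be matched to each other.

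The cap-binding, scaffold and helicase proteins of eIF4 were spread on both sides of 0, with 5 of 9 positive and a median of 0.03 in blastocysts in the authors' deposited table. Eif4e2 (ENSMUSG00000026254, chromosome 1 from 87213914 to 87240488, GRCm38), the cap-binding protein known for repressing bound mRNAs, had 271, 337 and 178 normalised reads on the positive and 372, 437 and 527 on the negative side, without overlap. The authors' deposited table gave it −0.76 (SE 0.38, p = 0.0465, adjusted p = 0.782). The main cap-binding protein Eif4e had 171, 219 and 311 against 425, 225 and 388, and its sides overlapped through the second negative-side library. The helicase Eif4a1 had a log2 fold change of −0.48 (SE 0.34, p = 0.164) and its paralogue Eif4a2 one of 0.08 (SE 0.28, p = 0.776) in the authors' deposited table. Eif4b, the cofactor of that helicase, stood at 0.49 (SE 0.30, p = 0.0996), while the scaffolds Eif4g1 (0.03, SE 0.28) and Eif4g2 (0.14, SE 0.22) lay close to 0 in the authors' deposited table. Their minor relative Eif4g3 had 340, 420 and 391 against 182, 589 and 230 normalised reads, with the second negative-side library highest of all. In ES cells all 9 eIF4 genes had an interval within 2-fold. Eif4a2 was the most positive factor by its statistic there, with 1755 and 1634 against 1320 and 1269 normalised reads and a shrunken log2 fold change of 0.35 (SE 0.20, p = 0.0721) in the authors' deposited table. Those reads are 1 of 6 solutions that give its mean, the one whose ratio lay near the deposited fold change, so they are no independent measure of it.

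The inhibitors and partners of eIF4E, which compete with the scaffold for the cap-binding protein, were all 3 positive among those tested in blastocysts and all 4 negative in ES cells. Beside them, 7347 of 15209 tested genes were positive in blastocysts and 5370 of 10739 negative in ES cells. The shrunken ES cell values lay near 0, from −0.15 to −0.04 in the authors' deposited table. The direction of neither table is stated, so the signs cannot be matched between materials. Eif4ebp2 had 272, 268 and 401 normalised reads on the positive and 108, 288 and 199 on the negative side of the blastocyst comparison. Eif4ebp1 had 368, 437 and 463 against 229, 578 and 367. In both genes the second negative-side library stood with or above the positive side. The log2 fold changes were 0.67 (SE 0.46, p = 0.148) and 0.11 (SE 0.40, p = 0.779) in the authors' deposited table. Without the second negative-side library the log2 ratios of the recovered means were 1.04 and 0.50. That library was singled out because it resembled the positive side, so these larger ratios are no support for a difference. The ES cell intervals of Eif4ebp1, Eif4ebp2 and Eif4enif1 lay within 2-fold.

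The main elongation factors were among the most tightly measured genes. Eef1a1 had a log2 fold change of 0.04 (SE 0.21, p = 0.855) in blastocysts and a shrunken one of 0.09 (SE 0.20, p = 0.641) in the ES cells of the authors' deposited tables, and its 95% interval lay within 1.5-fold in both. Eef2 stood at 0.21 (SE 0.27, p = 0.430) and 0.00 (SE 0.20, p = 0.988) in the authors' deposited tables. The 3 subunits of the exchange factor eEF1B were all negative in blastocysts, from −0.37 to −0.08, with none at an unadjusted p under 0.05 in the authors' deposited table. So were 7862 of all 15209 tested genes. Eef1d had 632, 447 and 398 normalised reads against 716, 406 and 785, so the sides overlapped. Eef2k, the kinase that stops eEF2 when energy or nutrients are short, was split within the negative side: it had 118, 182 and 144 normalised reads on the positive side, against 32.2, 239 and 25.9 on the negative side. The first and the third negative-side libraries held less than any positive one, and the second held the most of all 6. The authors' deposited table gave a log2 fold change of 0.58 (SE 0.77, p = 0.447). The log2 ratio of the recovered side means was 0.58 with and 2.35 without that library. It was 0.16 without the first and 0.13 without the third negative-side library. The second was singled out because it resembled the positive side in these data, so the larger ratio is no support for a difference. In ES cells Eef2k had 54.3 and 57.9 against 42.8 and 69.6 normalised reads. Eif5a, next to Eef2 by level per kb in blastocysts, stood at −0.23 (SE 0.29, p = 0.422) in blastocysts in the authors' deposited table, and Eif6, which keeps the large ribosomal subunit apart from the small one, at 0.16 (SE 0.39, p = 0.677).

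Counted over libraries, 10 of the 40 tested factors with recovered reads in blastocysts had sides that did not overlap (25.0%, against 9.96% of the 14684 recovered genes and 13.0% of those with a mean of at least 50). In 8 of them the negative side was higher and in 2, Eif1b and Eif2ak3, the positive side, against 5.30% and 4.66% of the recovered genes. The 8 were Eif2b2, Eif2b4, Eif3d, Eif3e, Eif3h, Eif3k, Eif3m and Eif4e2. None of the 10 passed the adjusted threshold, and factors are not independent replicates of the comparison. Without the first positive-side library the count was 14 of 40 (35.0%, against 20.1% of the recovered genes and 26.2% of those with a mean of at least 50). Without the second negative-side library it was 25 of 40 (62.5%, against 26.6% of the recovered genes and 36.3% of those with a mean of at least 50), 17 with the negative and 8 with the positive side higher. That library lay nearer to the other side in 25 of the 36 factors with a mean of at least 50. Leaving it out therefore raises the count by construction, and the rise is no support for a difference. Under that setting 7 of 10 recovered eIF3 genes and 3 of 4 recovered eIF2B genes had the negative side higher, and Eef2k, Eif4ebp1, Eif4ebp2, Eif4g3, Eif5b and Eif3j1 joined those with the positive side higher. In ES cells 12 of 56 recovered factors had sides that did not overlap (21.4%, against 40.4% of 10681 recovered genes), 7 with the positive and 5 with the negative side higher, against 20.1% and 20.2% of the recovered genes.

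**Figure D4:**
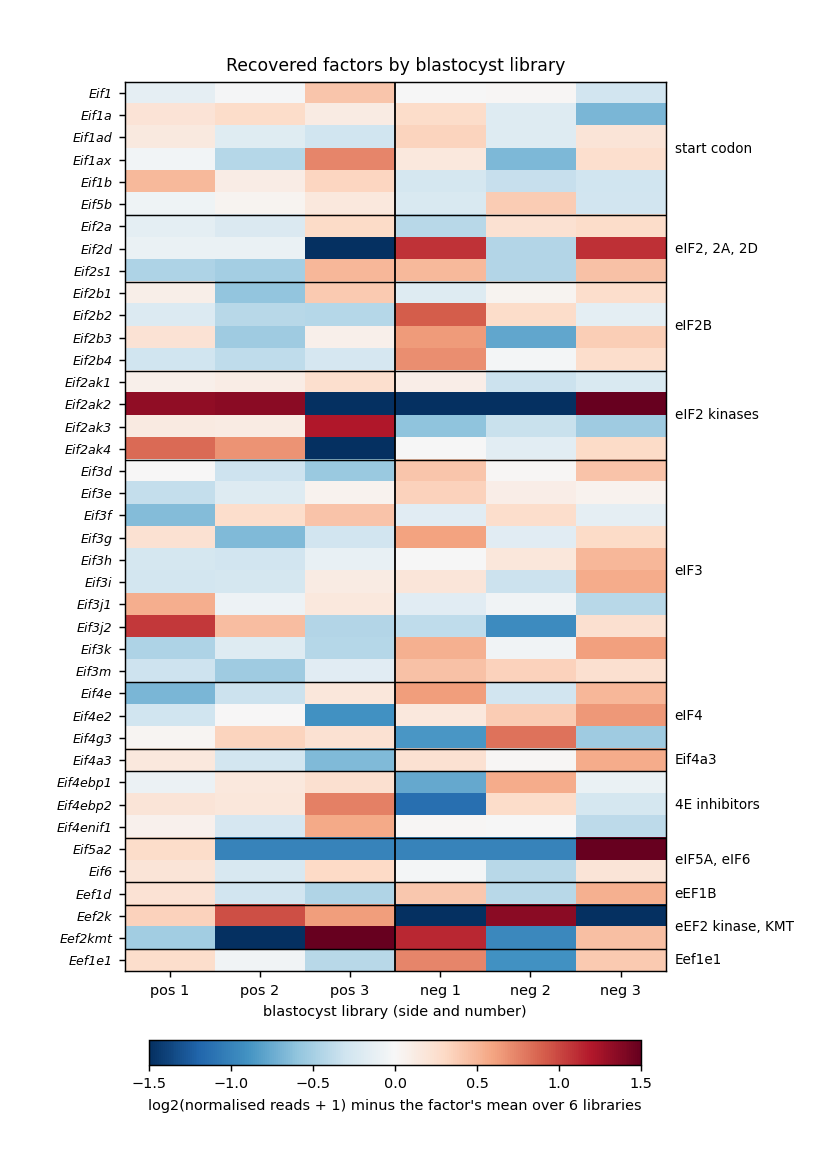
Deviation of each recovered factor in each blastocyst library from its own mean over the 6 libraries (colour, log2 scale, values beyond 1.5 drawn at the end colours), grouped by role, with positive-side libraries left of the line and negative-side libraries right of it. The first and the third negative-side libraries are above the mean for most eIF3 genes and below it for Eef2k, Eif4g3 and Eif4ebp2, while the second has the opposite colour for Eef2k and Eif4g3.

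The fold changes of the factors were set side by side in the materials. Of the 57 factors tested in both, 28 had the same sign in both of the authors' deposited tables. The Spearman correlation of the recovered ratios was 0.03 across the 40 factors tested in blastocysts with recovered reads. The genes nearest to an unadjusted p of 0.05 in ES cells after Eif2b5 were Eif4a2, Eif2a, Eif1ax and Eif2s2. Eif1ax, on the X chromosome, had 89.4 and 103 normalised reads on the positive and 129 and 161 on the negative side (shrunken log2 fold change −0.47, SE 0.27, p = 0.0833 in the authors' deposited table). Eif2a, an alternative carrier of initiator tRNA, had 224 and 312 against 189 and 183. Eif2s2 had 679 and 689 against 676 and 1267, a difference that came from the second negative-side library, since its log2 ratio went from −0.51 to 0.02 without it. That ES cell library also held the most fibroblast marker reads. Whether such reads bear on Eif2s2 was not tested.

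Genes around the factors were counted from lists of translation-related genes and are given beside the factors, not as a test of them. None of the 8 termination and recycling genes, 15 mTOR and cap regulators, 5 eIF2 phosphatase subunits, 9 modifiers of eIF5A and eEF2 or 9 mitochondrial translation factors had an unadjusted p under 0.05 in blastocysts in the authors' deposited table. Their signs were uneven, with 12 of 15 mTOR and cap regulators positive, 8 of 9 mitochondrial factors negative and 7 of 8 termination and recycling genes negative in the authors' deposited table. A positive sign was found in 48.3% of all tested genes. In ES cells none of the genes of these 5 lists had an unadjusted p under 0.05 in the authors' deposited table either. There 10 of 15 mTOR and cap regulators and 7 of 9 mitochondrial factors were positive, and 4 of 7 tested termination and recycling genes negative. The signs cannot be matched between the materials.

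The ATF4 targets, the genes switched on when eIF2 is blocked, were mostly positive in blastocysts. Of its 15 genes tested in blastocysts, 13 were positive and 3 had an unadjusted p under 0.05 (20.0%, against 6.21% of all tested genes) in the authors' deposited table, a lower share than the 4 of 10 trophectoderm and 3 of 10 inner cell mass markers. No test compared the lists. Chac1, which degrades glutathione, had a log2 fold change of 3.99 (SE 0.80, adjusted p = 0.00213) in the authors' deposited table and was the only gene of the lists past the adjusted threshold. Slc3a2, the shared chain of amino acid transporters, stood at 0.95 (SE 0.41, p = 0.0199) and Herpud1, which takes part in degradation at the endoplasmic reticulum, at 1.16 (SE 0.55, p = 0.0359) in the authors' deposited table. The summed normalised reads of the 16 recovered targets were 4133, 6298 and 5318 on the positive side, against 2024, 5513 and 2426 on the negative side. The second negative-side library thus lay within the range of the positive side here, as it did for Eif4ebp2, whereas for Eef2k it lay above it. Over the 27 recovered core factors the sums were 9698, 9700 and 10978 against 12552, 10860 and 12366, a range of less than 1.5-fold with overlap between the sides. None of the 18 targets had an unadjusted p under 0.05 in ES cells, where their median log2 fold change was 0.02 in the authors' deposited table. This pattern of ATF4 targets was known before the factors were examined and is no independent support for any change among them.

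**Figure D5:**
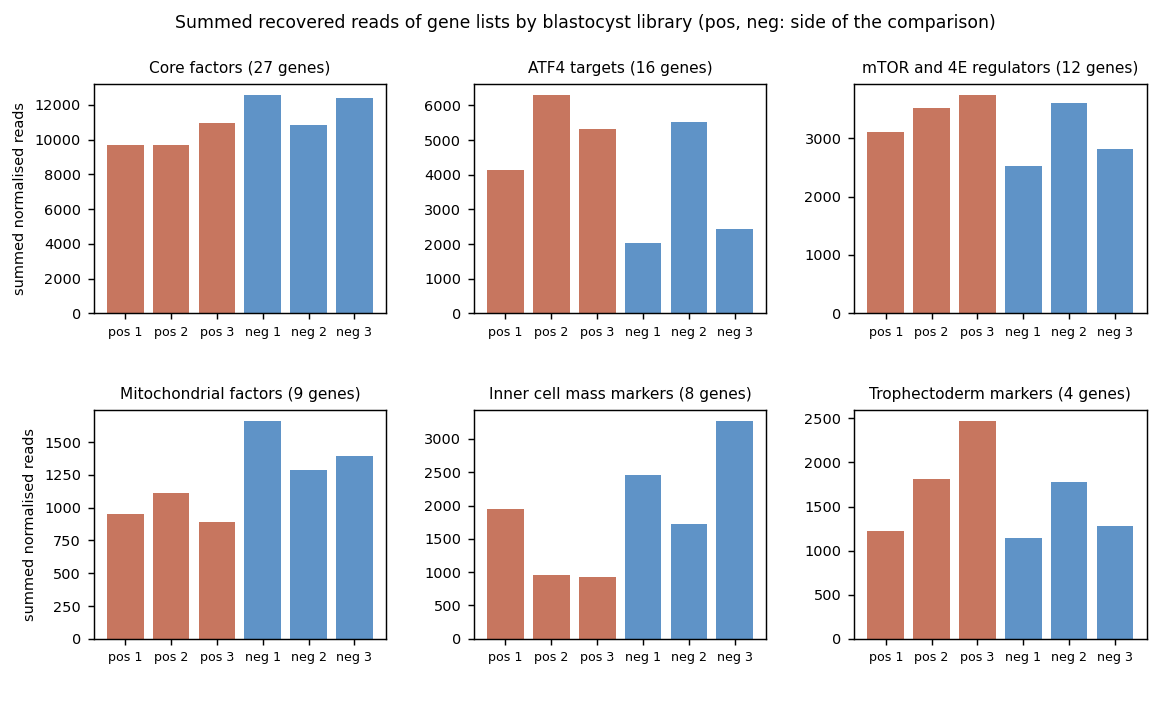
Summed normalised reads (y axis, from 0) of recovered genes of 6 lists in each blastocyst library, red for the positive and blue for the negative side. The second negative-side library has 5513 reads of ATF4 targets, near the positive side, where the first and the third have 2024 and 2426, and the core factors differ far less between libraries.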

How the data were processed

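Per the submitters' processing notes, the tools named are STAR 2.4.0b, SAMtools, bedtools, featureCounts (Subread 2.0.1) and DESeq2 1.34.0, with the build GRCm38 and no order of steps. The signal column is the authors' mean over libraries of counts divided by size factors, per the file headers. Fold changes and their standard errors were deposited on the log2 scale and look shrunken in the ES cell table. The authors also deposited the Wald statistic (a score) and the two-sided p-value with its Benjamini-Hochberg adjustment. The p-values printed are theirs, apart from those under alternatives in the closing section, which were readjusted or rescaled from their values. The tables hold 0 columns of per-sample values, and no new test was run on the recovered reads.

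Means are printed with 15 digits. Each was solved for the whole reads per count column by lattice search; from a mean of 60 in blastocysts, only solutions were kept whose refitted log2 fold change lay within 1e-07 of the printed one. Where several solutions gave an ES cell mean, as for Eif3c, Eif4a1, Eif4a2, Eif4g1 and Eif4g2, the only one within 0.1 of the log2 fold change with its shrinkage undone was taken. The search was limited to means under 1000 in blastocysts and 2000 in ES cells. On simulated blastocyst data it returned the true reads for 197 of 197 genes. A side is the set of columns that goes with positive or negative fold changes. Normalised reads are reads divided by the column's size factor, and intervals cover 95%. Reads count amplified fragments without molecular identifiers, so they give counting precision only, and most blastocyst read numbers are even, so that their reads are not all separate fragments. The shrinkage of ES cell values was undone from the standard errors for means of at least 25, with a prior SD of 0.66 taken from the largest standard error. Levels per kb use the merged length of all exons in GENCODE M21, and promoters come from RefSeq. Calculations used Python 3.11.15, numpy 2.4.6, pandas 2.3.3 and numba 0.67.0.

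The members and lists were chosen with earlier results of these data known. Genes named are Dis3l, members with an unadjusted p under 0.05, the 6 highest and 6 lowest members per table by Wald statistic, the 6 with the highest level per kb and the 3 with the lowest mean, the eIF2 kinases, eIF4E-binding proteins, Eef2k, 3 pairs of paralogues, and context genes with an unadjusted p under 0.05; other factors were named after their values were seen, to describe each complex. The threshold, the genes adjusted over, a minimum mean of 50, the scale of the statistics, the core factors alone and each library left out were tried as alternatives; the counts of separated libraries without 1 library were added after seeing the data.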

Additional observations from a re-analysis of the deposited data

Results flagged for a closer look

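Eif3e, a subunit of eIF3, was separated between the sides in opposite directions in the 2 materials. The log2 ratio of its recovered side means was −0.33 in blastocysts, with each of 3 negative-side libraries above each positive-side library, and 0.32 in ES cells, with both positive-side libraries above both negative-side ones. The difference was not tested, the highest positive-side and lowest negative-side blastocyst libraries held 921 and 926 normalised reads, and the direction of neither table is stated. Of all recovered ES cell genes 40.4% had sides that did not overlap.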

How the results depend on the processing

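No paired analysis was possible because the tables hold no per-sample values and the recovered count columns carry no replicate numbers. The count of factors with an adjusted p under 0.05 was 0 in both materials under each alternative: a threshold of 0.01, adjustment over every gene with a p-value, a minimum mean of 50, and Wald statistics rescaled to a robust SD of 1. The rescaled statistics gave 3 factors at an unadjusted p under 0.05 in blastocysts in place of 5, and 2 in ES cells in place of 1. The median log2 fold change was −0.06 over the 58 factors tested in blastocysts and −0.15 over the 40 with recovered reads, and over those 40 it ranged from −0.272 to −0.0267 with each library left out (lowest without the second negative-side library). In ES cells it was 0.00 over 58 and over the 56 recovered factors, and ranged from −0.0512 to 0.0895. The number of factors whose sides do not overlap in blastocysts, 10, ranged from 10 to 25 with each library left out. The 25 came without the second negative-side library, which lay nearer to the other side, so that rise was built in. Of 54 adjusted p-values of named factors under an alternative, 54 stayed above 0.05, from 0.123 to 1. Reads could not be recovered for the 17 factors with a blastocyst mean of at least 1000 or for Eif3l, so the counts by library leave out Eef1a1, Eef2, Eif3c and other abundant factors.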
